A study of Mus musculus with 4 samples.

Results

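Motile cilia are built from a long list of dedicated genes, and 32 of them were followed through sorted thymic epithelium of mice lacking SCD1 and of their littermates. The 32 genes form a list given by symbol, and every one of them was found in the count table of 54532 genes. By role they are 3 regulators of multiciliation, 5 outer arm and 8 inner arm dynein heavy chains, 3 radial spoke genes, 4 coiled-coil genes of the axonemal ruler and nexin link, 3 tektins and 6 further cilium genes. RNA was sequenced in bulk from C57BL/6 mice in 4 groups with 1 library each. They were medullary cells (mTEC, gated as Ly51− UEA1+) of SCD1 knockout mice, mTEC of littermate controls labelled WT, cortical cells (cTEC, gated as Ly51+ UEA1−) of SCD1 knockout mice, and cTEC of littermate controls. SCD1 is the desaturase that makes oleic acid. The sources used here give neither the deleted part of the gene nor the number, age or sex of the mice behind a library.

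A multiciliated cell assembles many motile cilia on its surface, as in the airway, the oviduct and the lining of the brain ventricles. The geminin relatives encoded by Gmnc and Mcidas start this program by driving centriole amplification and switching on Foxj1, a forkhead factor that, with RFX factors, turns on the genes of the ciliary shaft. The shaft, or axoneme, carries outer and inner dynein arms that make it beat, radial spokes and a central pair that pattern the beat, and tektin filaments that stiffen its microtubules. In the thymus, some medullary cells take on the programs of peripheral cell types, and such mimetic cells include a ciliated kind. A bulk library cannot tell fewer cells of a type from less RNA per cell.

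RFX factors bind a sequence called the X-box, and its arm GTTGCC was searched on both strands of the promoters, together with the forkhead core TGTTTAC. RefSeq promoters (build GRCm38.p6, 250 bases before to 50 bases after a start site) were found for 26 of the 32 genes, and not for Foxj1, Dnah3, Rsph1, Rsph4a, Armc2 and Tppp3. The X-box arm was present in 12 of these 26 genes (46.2%), against 3821 of 27025 genes in the whole promoter table (14.1%). The forkhead core was present in 2, Cfap43 and Dnah17, neither of which has the arm (7.69%, against 4.05% of all genes). The 12 genes with the arm are Mcidas, Dnah7a, Dnah7b, Dnah10, Ccdc113, Drc1, Tekt1, Tekt2, Tekt4, Hydin, Dynlrb2 and Zmynd10. The sequences below show 30 bases around it for the genes that passed the size rule between the populations in at least 1 genotype, as given later, and for Dnah7a as the close copy of Dnah7b. Hydin and Zmynd10 also passed but are not shown, because in them the 30 bases reach past the start site. The windows are written on the strand of the gene, with the arm in capitals (GGCAAC where it lies on the other strand).
Mcidas: gggggaagccagGTTGCCaggttggttaac
Dnah7a: tcgctcctcacaGTTGCCtgccaccctctg
Dnah7b: tacaggagcacaGTTGCCacccacccttaa
Tekt1: tcttctaactagGGCAACgttgcgtccgtc
Tekt2: cgcagctgcgcgGTTGCCtggctaagctga
Dynlrb2: acttcctgcctgGTTGCCtagcaacggggg
These windows lie at chr13:112993661-112993690, plus strand (Mcidas), chr1:53706967-53706996, minus strand (Dnah7a), chr1:46066678-46066707, plus strand (Dnah7b), chr11:72361900-72361929, minus strand (Tekt1), chr4:126325767-126325796, minus strand (Tekt2) and chr8:116504952-116504981, plus strand (Dynlrb2). The arm began 195 bases before the RefSeq start site in Mcidas, 51 in Dynlrb2 and 35 in Tekt1. Tekt1 and Tekt2 each have a further arm that is not shown. The RefSeq start site used is not always the start of the deposited gene. It lay 81938 bases from that start in Cfap43, 1415 in Dnah17, 560 in Tekt1 and 538 in Dnah7b. A match describes these letters only, and binding was not measured.

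Reads assigned to genes numbered 17051620 in knockout mTEC, 16467844 in control mTEC, 18151725 in knockout cTEC and 15740383 in control cTEC. With 1 library a group, no difference has a replicate check and no p-value was computed. The intervals are 95% and cover counting error only. Scd1 stood at 15.8 CPM (read counts scaled to the TMM-adjusted library size) in knockout mTEC against 76.9 CPM in control mTEC, and at 4.16 against 21.3 CPM in cTEC. The sort was visible in its markers. Aire, the medullary regulator, stood in the cTEC libraries at 2.67% (knockout) and 2.97% (control) of its mTEC level, and the cortical proteasome gene Psmb11 in the mTEC libraries at 8.39% and 7.48% of its cTEC level.

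All 32 genes had reads in all 4 libraries. Together they held 5419 reads in knockout mTEC, 4903 in control mTEC, 5484 in knockout cTEC and 4729 in control cTEC, which is 0.0318%, 0.0298%, 0.0302% and 0.0300% of assigned reads. The summed levels of the medullary and the cortical sort were close, at 308 against 313 CPM in knockouts and 288 against 309 CPM in controls. The genes Tppp3, Foxj1 and Dnah9 supplied 41.9% to 50.5% of these reads. Without Tppp3 the sums lay slightly on the mTEC side. They were 248 CPM in mTEC against 237 in cTEC in knockouts, a log2 ratio of 0.064 (0.002 to 0.125). In controls they were 242 against 231 CPM (0.062, -0.003 to 0.128). Per gene the median level was 4.64 CPM in knockout mTEC, 4.46 in control mTEC, 5.56 in knockout cTEC and 5.23 in control cTEC. By their summed level these genes do not mark the medullary sort, where ciliated mimetic cells are known, and they are called cilium genes below.

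Levels of different genes were compared per length, in TPM computed from the counts and the gene lengths in the table, which scale counts by gene length and library size. Tppp3, which encodes a microtubule-bundling protein, was the highest of the 32 in every library, at 91.6 TPM in knockout mTEC, 71.2 in control mTEC, 116 in knockout cTEC and 121 in control cTEC. Foxj1 came second in every library, at 47.8 TPM in knockout mTEC, 45.8 in control mTEC, 34.3 in knockout cTEC and 39.3 in control cTEC. Dynlrb2, a roadblock-type dynein light chain gene, had the third highest level in both cTEC libraries, but only the eighth in knockout mTEC and the fifth in control mTEC. The long dynein heavy chain genes were all below Foxj1, from Dnah9 (mean of the 4 libraries 6.88 TPM), Dnah11 (2.25) and Dnah2 (2.10) down to Dnah7b (0.372) and Dnah7a (0.203), the lowest of the 32 in mTEC. Gmnc was the lowest in both cTEC libraries, at 0.0562 TPM in the knockout and 0.0326 TPM in the control library.

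**Figure D1:**
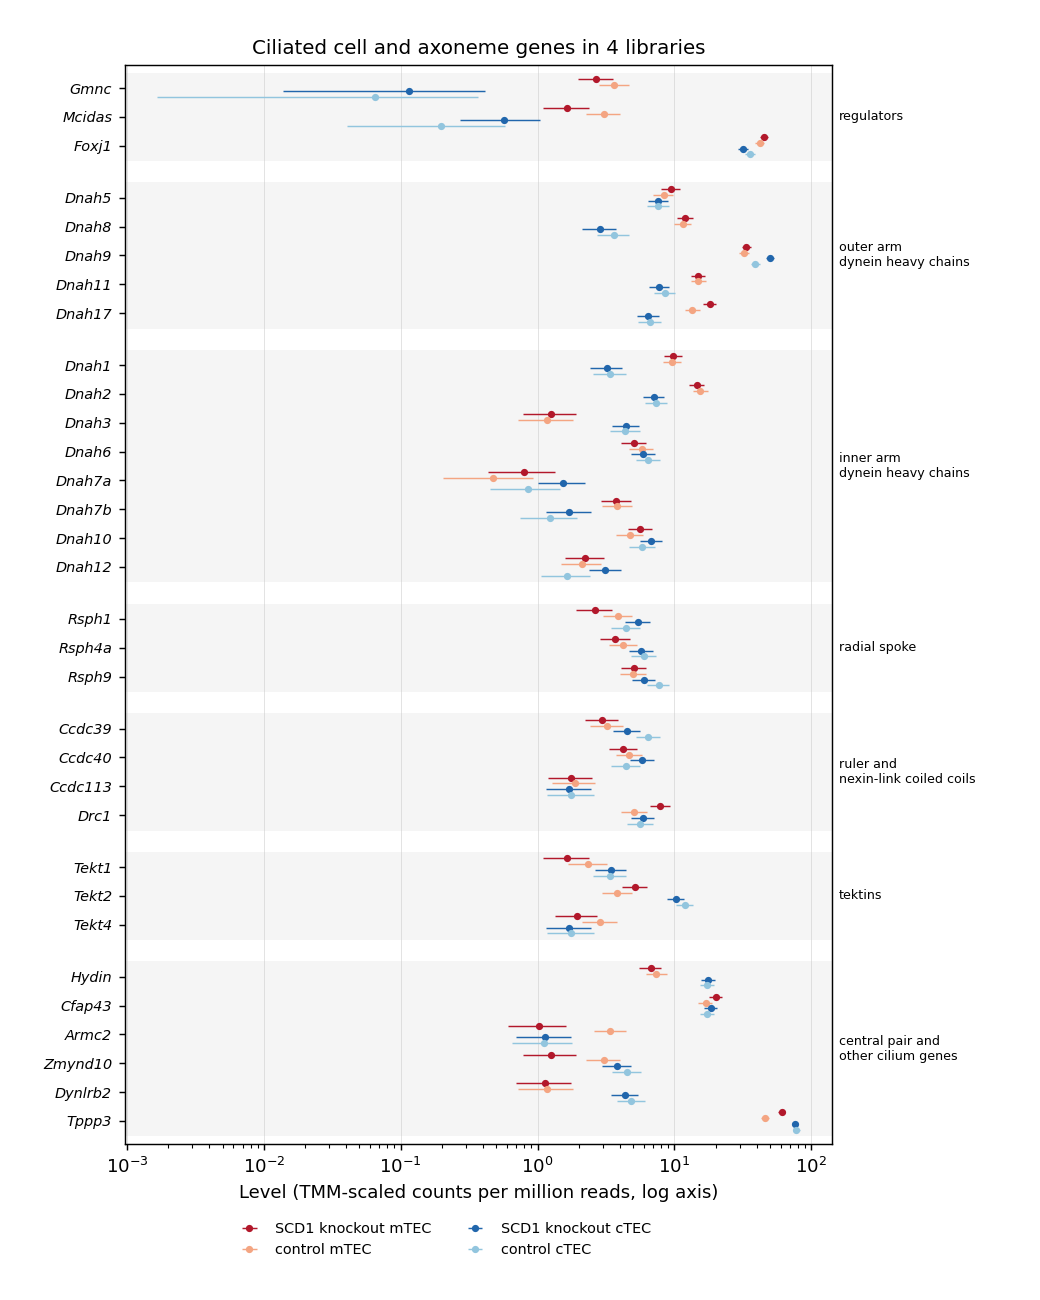
Level of each of the 32 cilium genes in the 4 libraries, in TMM-scaled CPM on a log axis, with 95% Poisson intervals (counting error only) and genes grouped by role. Foxj1, Dnah9 and Tppp3 are the highest in all libraries, while Gmnc and Mcidas are the genes with cTEC points below 1 CPM and mTEC points above it.

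RNA of other cell types was also present. The 12 thymocyte markers summed to 247 CPM in knockout mTEC against 204 in control mTEC, and 372 in knockout cTEC against 289 in control cTEC. The 7 endothelial markers summed to 25.0 CPM in knockout mTEC against 16.0 in control mTEC, and 26.7 in knockout cTEC against 16.6 in control cTEC. The 7 fibroblast markers summed to 185 CPM in knockout mTEC against 180 in control mTEC, and 393 in knockout cTEC against 400 in control cTEC. Thymocyte and fibroblast sums were thus higher in cTEC than in mTEC in both genotypes. Single fibroblast markers differed in both directions, by the size rule given below. In both genotypes Dcn and Lum were lower in mTEC, while Col1a1 and Pdgfrb were higher. Pdgfra was higher in mTEC in the knockout pair only. The 8 myeloid markers had a higher sum in mTEC. It was 366 CPM in knockout mTEC against 328 in control mTEC, and 120 in knockout cTEC against 98.1 in control cTEC. The 4 B cell markers summed to 16.3 CPM in knockout mTEC against 16.6 in control mTEC, and 4.74 in knockout cTEC against 4.12 in control cTEC. None of these markers was at 0 in any library. Their part in the cilium gene values was not tested.

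The comparison of mTEC with cTEC asked which sorted population held the cilium genes. They differed in both directions. By a size rule (at least 50 reads in the pair, at least 2-fold, interval excluding equal levels), 5 genes were higher and 6 lower in mTEC in the knockout pair, and 8 higher and 4 lower in the control pair. The knockout split became 6 higher and 4 lower when libraries were scaled by total reads alone. The shares passing were 39.3% of 28 and 38.7% of 31 genes with enough reads, beside 28.8% and 27.5% of all genes tested, of which 19.8% and 19.0% were higher and 8.96% and 8.52% lower. The median log2 ratio was -0.25 in the knockout and -0.04 in the control pair, against -0.077 and -0.055 over all genes tested, and the control median turned to 0.055 with scaling by total reads. Ratios above 0 were held by 12 of the 28 genes in the knockout pair and 15 of the 31 in the control pair, where 45.3% and 46.5% of all genes tested lay above 0 and 54.7% and 53.5% below. Counting also the genes with few reads, 27 of 32 lay on the same side in both genotypes (84.4%), against 88.5% of the 15509 genes with enough reads in both.

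The 8 genes that passed in the same direction in both genotypes were Dnah1, Dnah2, Dnah7b, Dnah8 and Dnah17, all higher in mTEC, and Dnah3, Hydin and Dynlrb2, all lower. No gene passed in opposite directions. These counts are out of 28 genes with enough reads in both pairs. Of all 15509 such genes, 2638 were higher in both, 1039 were lower in both and 8 passed in opposite directions. Across the 32 genes the log2 ratios of the knockout and control pairs, which share no library, had a Pearson r of 0.899 and a Spearman rho of 0.883, against 0.942 and 0.917 over all genes with enough reads. These are correlations across genes, which are not independent replicates.

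**Figure D2:**
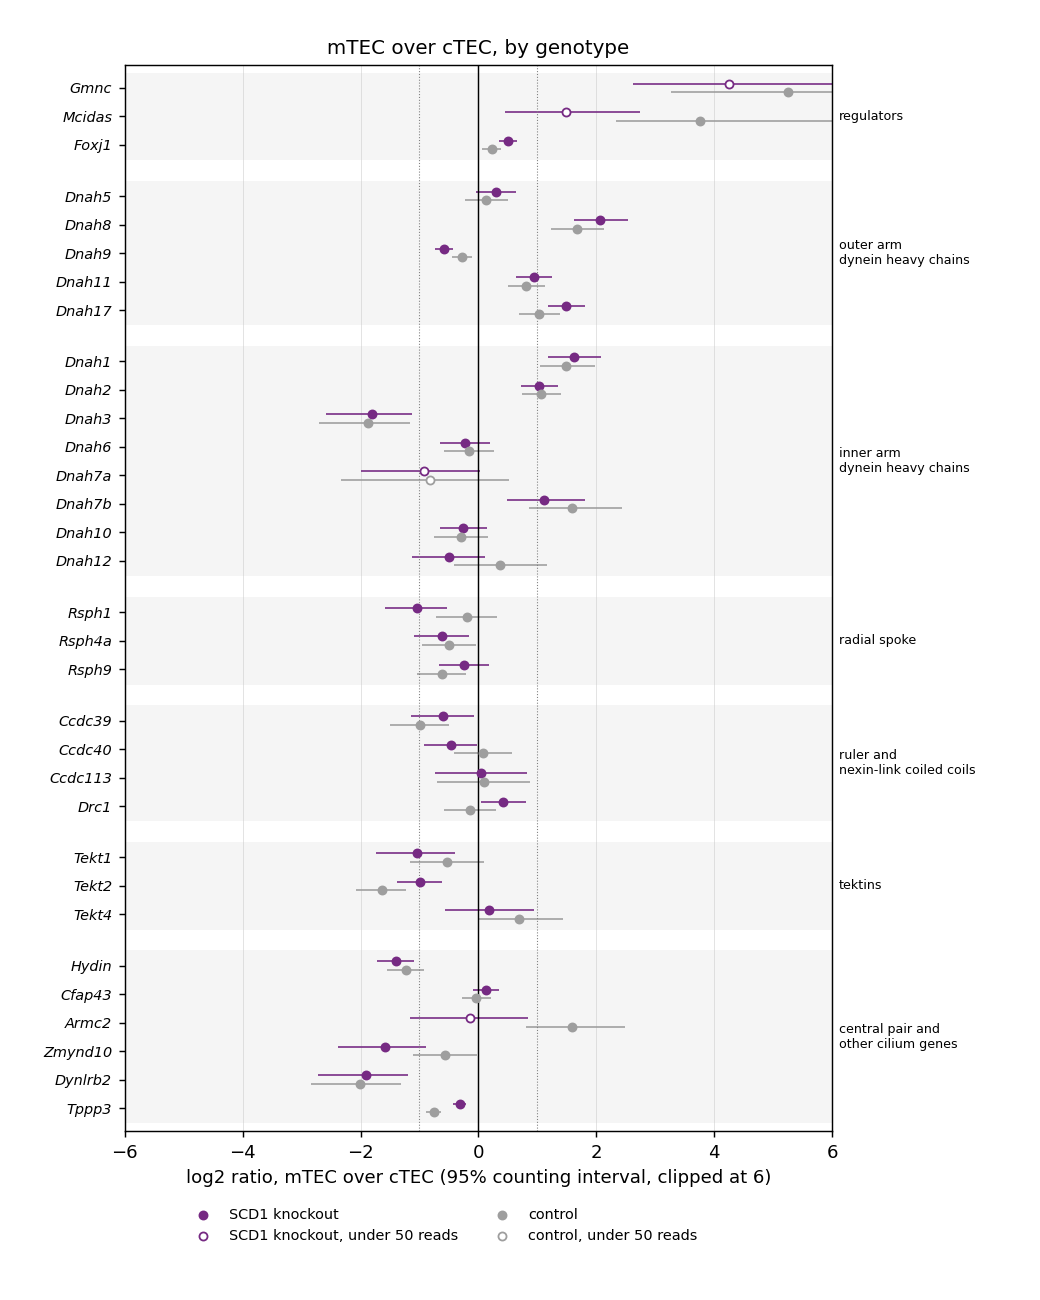
Log2 ratio of mTEC over cTEC for each cilium gene in the SCD1 knockout pair and in the control pair, with 95% counting intervals and open points for genes under 50 reads in the pair. Gmnc and Mcidas lie farthest to the right in the control pair (5.25 and 3.76), Dnah3, Dynlrb2 and Hydin lie left of -1 in both pairs, and dotted lines mark the 2-fold limits.

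Among the regulators, Gmnc, the geminin relative at the top of the program (chromosome 16, 26913553 to 26991652 on mm10, minus strand), had nearly all its reads in mTEC, with 47 reads in knockout mTEC against 2 in knockout cTEC, and 62 in control mTEC against 1 in control cTEC. Its log2 ratio was 4.25 [2.62 to 7.64] in the knockout pair, where it missed the minimum with 49 reads, and 5.25 [3.27 to 11.12] in the control pair. Both mTEC libraries thus stood far above both cTEC libraries. Mcidas (multicilin) had 29 reads in knockout mTEC against 10 in knockout cTEC, and 52 in control mTEC against 3 in control cTEC, a log2 ratio of 1.49 [0.46 to 2.73] over 39 reads in the knockout pair and 3.76 [2.33 to 6.28] in the control pair. Both of its mTEC libraries were above both cTEC libraries, and the ratio was smaller in knockouts, where mTEC had fewer and cTEC more reads. The difference between the pairs was not tested. Foxj1, the factor downstream, stood at 45.1 CPM in knockout mTEC against 31.8 CPM in knockout cTEC, and at 42.1 CPM in control mTEC against 36.0 CPM in control cTEC. Its ratios of 0.50 [0.34 to 0.66] and 0.23 [0.06 to 0.39] are above 0 and below 2-fold. In knockout and control cTEC, Foxj1 thus stood at 70.6% and 85.5% of its mTEC level, Mcidas at 34.6% and 6.43%, and Gmnc at 4.26% and 1.80%.

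Dynein heavy chains, the motor subunits of the arms, divided by member. As a class they summed to 131 CPM in knockout mTEC against 109 in knockout cTEC, and 124 against 96.6 in controls. In each genotype 5 of the 12 with enough reads were higher in mTEC by the size rule and 1 was lower, which is 41.7% and 8.33%, beside 19.8% higher and 8.96% lower of all genes in the knockout pair and 19.0% and 8.52% in the control pair. The share on the lower side was thus at the level of all genes. Dnah8, an outer arm chain known from the mouse sperm flagellum, stood at 11.9 CPM in knockout mTEC against 2.85 CPM in knockout cTEC, and at 11.5 CPM in control mTEC against 3.60 CPM in control cTEC. Both mTEC libraries were over 3 times as high as their cTEC counterparts (4.16-fold and 3.18-fold). Dnah17, the other outer arm chain of sperm, stood at 18.1 CPM in knockout mTEC against 6.45 CPM in knockout cTEC, and at 13.6 CPM in control mTEC against 6.61 CPM in control cTEC (log2 ratio of mTEC over cTEC 1.49 [1.18 to 1.81] in the knockout pair and 1.03 [0.69 to 1.39] in the control pair). The highest of the 4 libraries was knockout mTEC, and both mTEC libraries were above both cTEC libraries.

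None of the outer arm chains of airway cilia passed the size rule. Dnah5, whose loss causes primary ciliary dyskinesia in human, stood at 9.39 CPM in knockout mTEC against 7.64 CPM in knockout cTEC, and at 8.33 CPM in control mTEC against 7.59 CPM in control cTEC, and both intervals include equal levels (log2 ratio of mTEC over cTEC 0.30 [-0.04 to 0.64] in the knockout pair and 0.13 [-0.23 to 0.50] in the control pair). Dnah9, the most abundant dynein heavy chain of the list, was on the cTEC side in both genotypes, at 33.6 CPM in knockout mTEC against 50.1 CPM in knockout cTEC, and at 32.4 CPM in control mTEC against 39.1 CPM in control cTEC. Its log2 ratios of -0.58 [-0.73 to -0.42] and -0.27 [-0.44 to -0.10] exclude 0 without reaching 2-fold, and knockout cTEC was the highest library. Dnah11 was on the mTEC side, with 262 reads in knockout mTEC against 136 in knockout cTEC, and 255 in control mTEC against 130 in control cTEC, and ratios of 0.94 [0.64 to 1.25] and 0.81 [0.51 to 1.13] that fall just short of the limit, the first of which passed it with scaling by total reads (1.03).

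Inner arm chains spanned both sides. Dnah1 stood at 9.85 CPM in knockout mTEC against 3.19 CPM in knockout cTEC, and at 9.62 CPM in control mTEC against 3.40 CPM in control cTEC (log2 ratio of mTEC over cTEC 1.61 [1.18 to 2.09] in the knockout pair and 1.49 [1.04 to 1.98] in the control pair), and Dnah2 at 14.5 CPM in knockout mTEC against 7.07 CPM in knockout cTEC, and at 15.5 CPM in control mTEC against 7.39 CPM in control cTEC (log2 ratio of mTEC over cTEC 1.03 [0.72 to 1.36] in the knockout pair and 1.06 [0.74 to 1.40] in the control pair). For both genes both mTEC libraries were above both cTEC libraries. Dnah3 lay the other way, with 22 reads in knockout mTEC against 78 in knockout cTEC, and 20 in control mTEC against 67 in control cTEC, with ratios of -1.81 [-2.58 to -1.13] and -1.87 [-2.70 to -1.16]. Of the Dnah3 exon bases, 10.5% overlap Lyrm1 on the opposite strand, which had 59 to 114 reads a library. Without the strand setting, reads of such overlapping genes cannot be told apart. Dnah6 had log2 ratios of -0.23 [-0.65 to 0.19] and -0.16 [-0.58 to 0.26] and Dnah10 of -0.26 [-0.66 to 0.14] and -0.29 [-0.74 to 0.16], all with intervals that include equal levels. Dnah12 had 39 reads in knockout mTEC against 55 in knockout cTEC, and 36 in control mTEC against 25 in control cTEC, and its ratios of -0.49 [-1.13 to 0.12] and 0.36 [-0.41 to 1.17] both include 0.

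Dnah7a and Dnah7b are close copies, so their separate values are uncertain. Of the 50-base windows of Dnah7a, 40.3% occur in another gene, mostly Dnah7b, and of those of Dnah7b 48.4%, mostly in Dnah7c. The sources used here do not say how reads mapping to several places were counted. Dnah7b had 66 reads in knockout mTEC against 30 in knockout cTEC, and 65 in control mTEC against 19 in control cTEC and passed the size rule in both pairs (log2 ratio of mTEC over cTEC 1.12 [0.49 to 1.81] in the knockout pair and 1.59 [0.86 to 2.44] in the control pair). Dnah7a had 14 reads in knockout mTEC against 27 in knockout cTEC, and 8 in control mTEC against 13 in control cTEC, on the opposite side and under the read minimum in both pairs. Dnah7c had 16 reads in knockout mTEC against 29 in knockout cTEC, and 19 in control mTEC against 32 in control cTEC. The 3 copies together had 96 reads in knockout mTEC against 86 in knockout cTEC, and 92 in control mTEC against 64 in control cTEC. Their summed log2 ratios were 0.15 (-0.28 to 0.59) and 0.36 (-0.11 to 0.85). Both of these intervals include equal levels.

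The radial spoke genes had ratios below 0 throughout. Rsph1 stood at 2.62 CPM in knockout mTEC against 5.42 CPM in knockout cTEC, and at 3.87 CPM in control mTEC against 4.45 CPM in control cTEC and passed the size rule in the knockout pair only (log2 ratio of mTEC over cTEC -1.04 [-1.59 to -0.53] in the knockout pair and -0.20 [-0.71 to 0.31] in the control pair). Rsph4a and Rsph9, both components of the spoke head, had log2 ratios of -0.62 [-1.10 to -0.16] and -0.24 [-0.67 to 0.18] in knockouts and -0.49 [-0.96 to -0.03] and -0.61 [-1.04 to -0.20] in controls. Of the 6 ratios of these genes, 1 passed, and this call of Rsph1 ended with scaling by total reads (-0.95).

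Of the coiled-coil genes, Ccdc39, which with Ccdc40 sets the repeat along the axoneme, stood at 2.96 CPM in knockout mTEC against 4.51 CPM in knockout cTEC, and at 3.23 CPM in control mTEC against 6.41 CPM in control cTEC. Its ratios were -0.60 [-1.14 to -0.08] and -0.98 [-1.49 to -0.50], on the cTEC side in both genotypes, and 16.9% of its exon bases overlap Ttc14 (765 to 1298 reads a library) on the opposite strand. Ccdc40 had ratios of -0.46 [-0.92 to -0.02] and 0.08 [-0.41 to 0.57]. Drc1, of the nexin-dynein regulatory complex, was highest in knockout mTEC, at 7.85 CPM in knockout mTEC against 5.88 CPM in knockout cTEC, and at 5.11 CPM in control mTEC against 5.63 CPM in control cTEC. Ccdc113, a cilium coiled-coil gene, had 31 reads in knockout mTEC against 30 in knockout cTEC, and 32 in control mTEC against 27 in control cTEC, with both intervals including equal levels. None of these 4 genes passed the size rule.

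Tektins differed by member. Tekt2, the most abundant per length, stood at 5.12 CPM in knockout mTEC against 10.2 CPM in knockout cTEC, and at 3.81 CPM in control mTEC against 11.9 CPM in control cTEC. Both cTEC libraries were well above both mTEC libraries, and the gene was 1.99-fold lower in knockout mTEC, just under the limit, and 3.11-fold lower in control mTEC, past it. A noncoding transcript, Gm12945, overlaps 20.8% of its exon bases on the opposite strand and had at most 3 reads in any library. Tekt1 had 29 reads in knockout mTEC against 60 in knockout cTEC, and 40 in control mTEC against 52 in control cTEC and passed the rule in the knockout pair only (log2 ratio of mTEC over cTEC -1.04 [-1.75 to -0.39] in the knockout pair and -0.53 [-1.17 to 0.09] in the control pair). This call of Tekt1 also ended with scaling by total reads (-0.95). Tekt4 had 34 reads in knockout mTEC against 30 in knockout cTEC, and 49 in control mTEC against 27 in control cTEC, with both intervals including 0 (log2 ratio of mTEC over cTEC 0.17 [-0.57 to 0.94] in the knockout pair and 0.69 [-0.003 to 1.44] in the control pair).

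In the last group, Hydin and Dynlrb2 were lower in mTEC in both genotypes. Hydin, a very large protein of the central pair, stood at 6.72 CPM in knockout mTEC against 17.7 CPM in knockout cTEC, and at 7.39 CPM in control mTEC against 17.4 CPM in control cTEC, 2.63-fold and 2.35-fold lower in mTEC. Both cTEC libraries held a far higher level than either mTEC library. Dynlrb2 had 20 reads in knockout mTEC against 76 in knockout cTEC, and 20 in control mTEC against 74 in control cTEC, 3.74-fold and 4.05-fold lower in mTEC, again with both cTEC libraries above both mTEC libraries. Tppp3 stood at 60.9 CPM in knockout mTEC against 76.0 CPM in knockout cTEC, and at 46.1 CPM in control mTEC against 78.0 CPM in control cTEC, with ratios of -0.32 [-0.44 to -0.20] and -0.76 [-0.89 to -0.63]. Cfap43, needed for the sperm flagellum and for motile cilia in mouse, stood at 20.1 CPM in knockout mTEC against 18.4 CPM in knockout cTEC, and at 16.9 CPM in control mTEC against 17.3 CPM in control cTEC, with both intervals including equal levels. Of the Cfap43 exon bases, 2.32% overlap the coding gene Itprip on the same strand. The deposited length of Cfap43 is 9955 bases, against 5968 for its longest GENCODE M21 transcript, and its deposited position does not match GENCODE M21. Itprip had no entry of its own in the count table under its GENCODE M21 identifier. The Cfap43 counts may thus include reads of Itprip, which was not tested.

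Armc2, an armadillo repeat gene of the sperm flagellum in mouse, passed the size rule in the control pair and had too few reads in the knockout pair. Zmynd10, a dynein arm assembly factor, had ratios below 0 in both pairs but passed in the knockout pair only. Armc2 had 18 reads in knockout mTEC against 20 in knockout cTEC, and 58 in control mTEC against 17 in control cTEC, so that control mTEC stood above the other 3 libraries (log2 ratio of mTEC over cTEC -0.15 [-1.16 to 0.84] in the knockout pair and 1.59 [0.81 to 2.49] in the control pair). Zmynd10 had 22 reads in knockout mTEC against 67 in knockout cTEC, and 52 in control mTEC against 69 in control cTEC, so that knockout mTEC stood below the other 3 (log2 ratio of mTEC over cTEC -1.59 [-2.38 to -0.90] in the knockout pair and -0.56 [-1.11 to -0.03] in the control pair).

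Cilium genes beyond the 32 were examined in lists by function. Of 117 further genes in the table, 97 had enough reads in the knockout pair and 97 in the control pair. In the knockout pair 13 were higher and 24 lower in mTEC, and in the control pair 10 and 26, with median log2 ratios of -0.29 and -0.53. These are 13.4% and 10.3% higher and 24.7% and 26.8% lower, beside 19.8% and 19.0% higher and 8.96% and 8.52% lower of all genes, whose medians were -0.077 and -0.055. The counts of the single lists that follow stand beside the same shares of all genes. The list of general ciliated cell genes had 4 higher and 10 lower members of 29 in the knockout pair and 5 and 11 in the control pair. Tmem212 had 17 reads in knockout mTEC against 136 in knockout cTEC, and 14 in control mTEC against 111 in control cTEC (log2 ratio of mTEC over cTEC -2.97 [-3.82 to -2.27] in the knockout pair and -3.10 [-4.06 to -2.34] in the control pair). Sntn, the gene of the ciliary tip protein sentan, had 11 reads in knockout mTEC against 69 in knockout cTEC, and 5 in control mTEC against 49 in control cTEC, and Riiad1 and Ccdc153 were lower in mTEC in both genotypes as well, by 3.63-fold and 4.21-fold in knockouts and 4.09-fold and 3.61-fold in controls. Sec14l3, a lipid-transfer gene of ciliated airway cells, lay the other way, with 59 reads in knockout mTEC against 4 in knockout cTEC, and 74 in control mTEC against 6 in control cTEC.

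The other regulators were also divided. Of 11 with enough reads, 1 was higher and 2 were lower in mTEC in the knockout pair, and 2 and 2 in the control pair. Deup1, which builds deuterosomes for centriole amplification, had 47 reads in knockout mTEC against 11 in knockout cTEC, and 39 in control mTEC against 16 in control cTEC. Ccno, the cyclin O gene of the same step, stood at 17.8 CPM in knockout mTEC against 36.2 CPM in knockout cTEC, and at 18.4 CPM in control mTEC against 42.7 CPM in control cTEC, and Trp73, the p73 gene upstream of Foxj1, at 8.31 CPM in knockout mTEC against 18.0 CPM in knockout cTEC, and at 9.39 CPM in control mTEC against 21.4 CPM in control cTEC. Ccno lies beside Mcidas on mm10 chromosome 13 (Ccno at 112987802 to 112990777, Mcidas at 112993845 to 113000394, both on the plus strand), with 3067 bases between them, and Cdc20b follows at 113035111 to 113091195. Ccno was 2.04-fold and 2.32-fold lower in mTEC, on the other side from Mcidas, while Cdc20b, under the read minimum, had 12 reads in knockout mTEC against 1 in knockout cTEC, and 19 in control mTEC against 3 in control cTEC. Foxn4, a forkhead gene of the multiciliation program singled out after its values were seen, had 42 reads in knockout mTEC against 0 in knockout cTEC, and 37 in control mTEC against 0 in control cTEC. It was thus under the read minimum in both pairs. With a floor of 3 counts in place of 0, it was 14.0-fold higher in knockout mTEC and 11.1-fold higher in control mTEC. These folds leave out the counting error of the mTEC reads. Myb and E2f4, the most abundant of the list, had ratios of 0.27 and 0.54, and -0.30 and 0.09.

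In a list of further dynein chains, made of 8 intermediate and light chains and the heavy chains Dnah7c and Dnah14, there were 2 higher and 1 lower of 8 in the knockout pair and 2 and 2 of 9 in the control pair. Dnaic2, an outer arm intermediate chain, stood at 39.7 CPM in knockout mTEC against 7.02 CPM in knockout cTEC, and at 33.7 CPM in control mTEC against 6.61 CPM in control cTEC and was 5.64-fold and 5.08-fold higher in mTEC, and Dnah14 was 3.55-fold and 4.76-fold higher. Dnali1, an inner arm light chain, was 2.02-fold and 2.87-fold lower. Docking and assembly factors had 1 higher and 0 lower of 10 in the knockout pair and 0 and 1 of 10 in the control pair, the docking genes Ttc25 (higher) and Ccdc151 (lower). Other radial spoke and central pair genes had 0 higher and 2 lower of 14 in the knockout pair and 0 and 4 of 13 in the control pair, with Dnajb13, a spoke chaperone gene, at -1.20 and -1.50. Other doublet and nexin-link genes had 5 higher and 9 lower of 25 in the knockout pair and 1 and 6 of 25 in the control pair, among them Efhc2 (-2.56 and -1.47), Cfap206 (-1.52 and -1.97) and, on the mTEC side, Drc7 (1.17 and 1.42).

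Genes of intraflagellar transport and of cytoplasmic dynein, which nearly all cells use, had medians below 0. For intraflagellar transport the median ratio was -0.40 in knockouts and -0.47 in controls, with 2 of 24 lower by the size rule in each pair, Kif17 (-2.02 and -3.24) and Ift81 (-1.56 and -1.56). Cytoplasmic dynein genes had medians of -0.43 and -0.22, with Dynll2 and Dynlt3 lower in both. Markers of 7 other mimetic cell types (tuft, microfold, neuroendocrine, muscle, keratinocyte, enterocyte and hepatocyte, ionocyte) had higher medians, 2.13 and 2.13. By the size rule 14 of 19 were higher in mTEC in the knockout and 13 of 19 in the control pair, and none was lower. The lowest ratio in the knockout pair was -0.42. By summed level the neuroendocrine markers stood at 1097 CPM in knockout mTEC against 1222 in knockout cTEC, and 1460 against 1281 in controls. The sums of the other types were higher in mTEC in both genotypes. With 1 library a group the difference between these lists and the cilium genes was not tested. Of 16 sperm-specific genes, 8 had under 10 reads in each mTEC library, and 12 and 13 in knockout and control cTEC. Of the few with enough reads, Spem1, a spermatid gene, was lower in mTEC in both pairs (11 reads in knockout mTEC against 47 in knockout cTEC, and 17 in control mTEC against 46 in control cTEC), and Tnp2, a spermatid nuclear protein gene, was higher in the knockout pair (52 reads in knockout mTEC against 13 in knockout cTEC, and 21 in control mTEC against 3 in control cTEC).

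**Figure D3:**
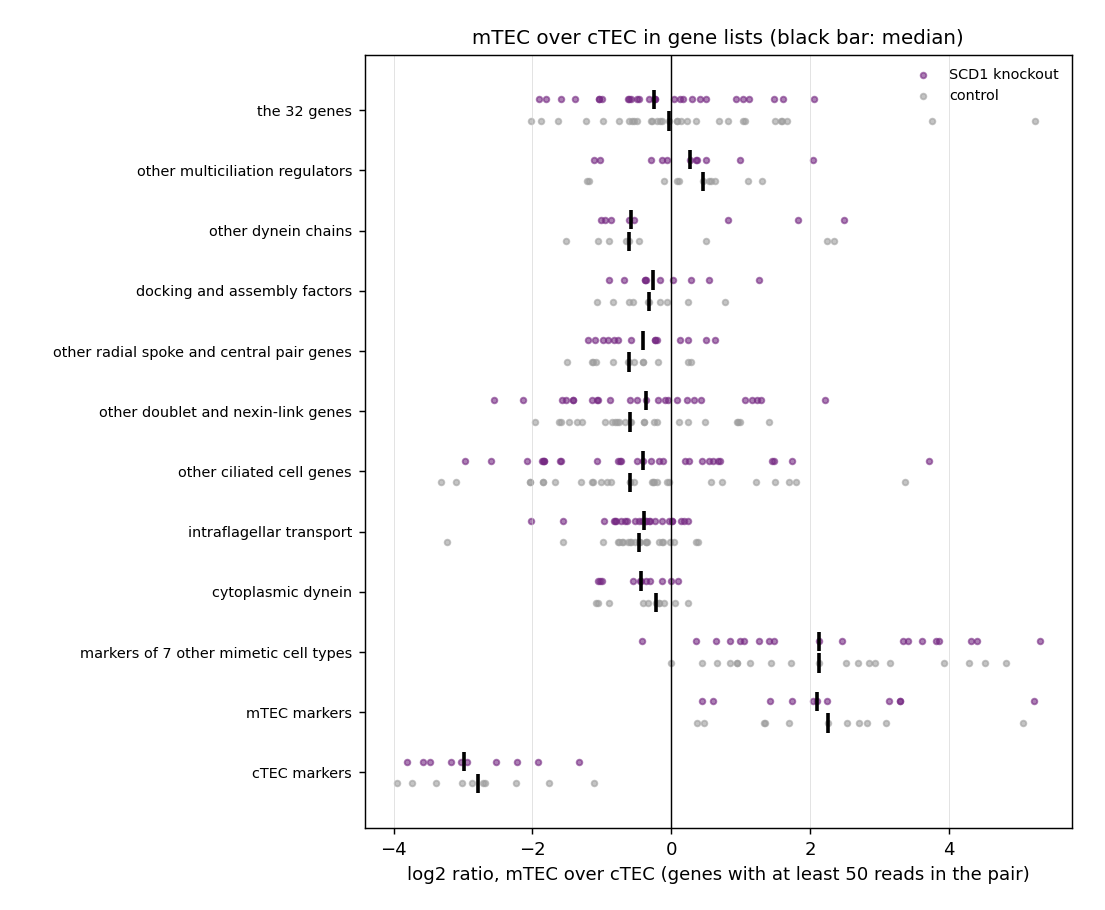
Log2 ratio of mTEC over cTEC for genes with at least 50 reads in the pair, 1 point a gene, in the 32 cilium genes and in other lists, for the SCD1 knockout and the control pair, with black bars at the medians. The 32 genes spread to both sides of 0, with medians of -0.25 in the knockout and -0.04 in the control pair, and the markers of other mimetic cell types have a median of 2.13 in both pairs.

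The genotype comparison asked whether the cilium genes differed without SCD1. In mTEC 2 of 29 genes with enough reads passed the size rule, both lower in the knockout library (6.90%, beside 0.935% of all 16466 genes tested, 0.504% higher and 0.431% lower). They were Armc2 and Zmynd10, and Dnah3, Dnah7a and Dynlrb2 had too few reads. The median log2 ratio of knockout over control was -0.02, against 0.007 over all genes tested, with 13 genes above 0 and 16 below (52.0% and 48.0% of all genes tested). Armc2 (chromosome 10, 41914990 to 42018442 on mm10, minus strand) had 18 reads in knockout mTEC against 58 in control mTEC (1.02 and 3.40 CPM), a log2 ratio of -1.70 [-2.58 to -0.95]. Knockout mTEC was thus close to the cTEC libraries, which had 20 and 17 reads. Zmynd10 (chromosome 9, 107547298 to 107551319, plus strand) had 22 reads in knockout mTEC against 52 in control mTEC (1.25 and 3.05 CPM), a log2 ratio of -1.27 [-2.08 to -0.54], and 10.1% of its exon bases overlap an antisense transcript, Gm34106, that had at most 4 reads in a library. Neither was tested when 200 reads were required, since both have fewer.

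Of the regulators in mTEC, Mcidas had 29 reads in knockout mTEC against 52 in control mTEC, a log2 ratio of -0.88 [-1.59 to -0.20] that excludes 0 without reaching 2-fold. Gmnc had 47 reads in knockout mTEC against 62 in control mTEC (log2 ratio -0.44 [-1.02 to 0.13]), and Foxj1 792 reads in knockout mTEC against 717 in control mTEC (0.10 [-0.05 to 0.25]). Ratios above 0 with intervals excluding 0 were found for Drc1, with 138 reads in knockout mTEC against 87 in control mTEC (0.62 [0.22 to 1.03]), Dnah17, with 318 reads in knockout mTEC against 231 in control mTEC (0.42 [0.17 to 0.67]), Tppp3, with 1070 reads in knockout mTEC against 785 in control mTEC (0.40 [0.27 to 0.54]), and Cfap43 (0.25 [0.02 to 0.48]). All 4 were under 2-fold, and the Cfap43 counts may include reads of Itprip, as given above. Fewer reads in knockout mTEC, with intervals that include equal levels, were found for Rsph1 (46 reads in knockout mTEC against 66 in control mTEC, -0.56 [-1.14 to 0]), Tekt1 (29 reads in knockout mTEC against 40 in control mTEC, -0.50 [-1.25 to 0.22]) and Tekt4 (34 reads in knockout mTEC against 49 in control mTEC, -0.56 [-1.25 to 0.09]). Tekt2 lay on the other side (90 reads in knockout mTEC against 65 in control mTEC, 0.42 [-0.05 to 0.91]), also with an interval that includes 0. The other dynein heavy chains with enough reads lay between -0.18 (Dnah6) and 0.24 (Dnah10). Summed over the 32 genes the level was 308 CPM in knockout mTEC against 288 CPM in control mTEC, a ratio of 0.10 (0.04 to 0.16), and without Tppp3 it was 248 against 242 CPM (0.04, -0.03 to 0.10).

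In cTEC 0 of 27 cilium genes passed the size rule (beside 1.18% of all 14445 genes tested, 0.492% higher and 0.692% lower), and Gmnc, Mcidas, Dnah7a, Dnah7b and Armc2 had too few reads. The median log2 ratio was -0.04, against 0.01 over all genes tested, with 11 genes above 0 and 16 below (52.4% and 47.6% of all genes tested). Dnah12 came nearest, with 55 reads in knockout cTEC against 25 in control cTEC (0.93 [0.23 to 1.68]). Dnah9 had 878 reads in knockout cTEC against 598 in control cTEC (0.36 [0.20 to 0.51]), the other ratio above 0 whose interval excludes 0. Below 0 were Ccdc39, with 79 reads in knockout cTEC against 98 in control cTEC (-0.51 [-0.95 to -0.07]), and Foxj1, at 31.8 CPM in knockout cTEC against 36.0 CPM in control cTEC (-0.18 [-0.35 to -0.004]). Of the genes that passed in mTEC, Armc2 had 20 reads in knockout cTEC against 17 in control cTEC and Zmynd10 67 reads in knockout cTEC against 69 in control cTEC. Mcidas had 10 reads in knockout cTEC against 3 in control cTEC (1.41 [-0.42 to 4.04]). The summed level of the 32 genes was 313 CPM in knockout cTEC against 309 CPM in control cTEC.

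**Figure D4:**
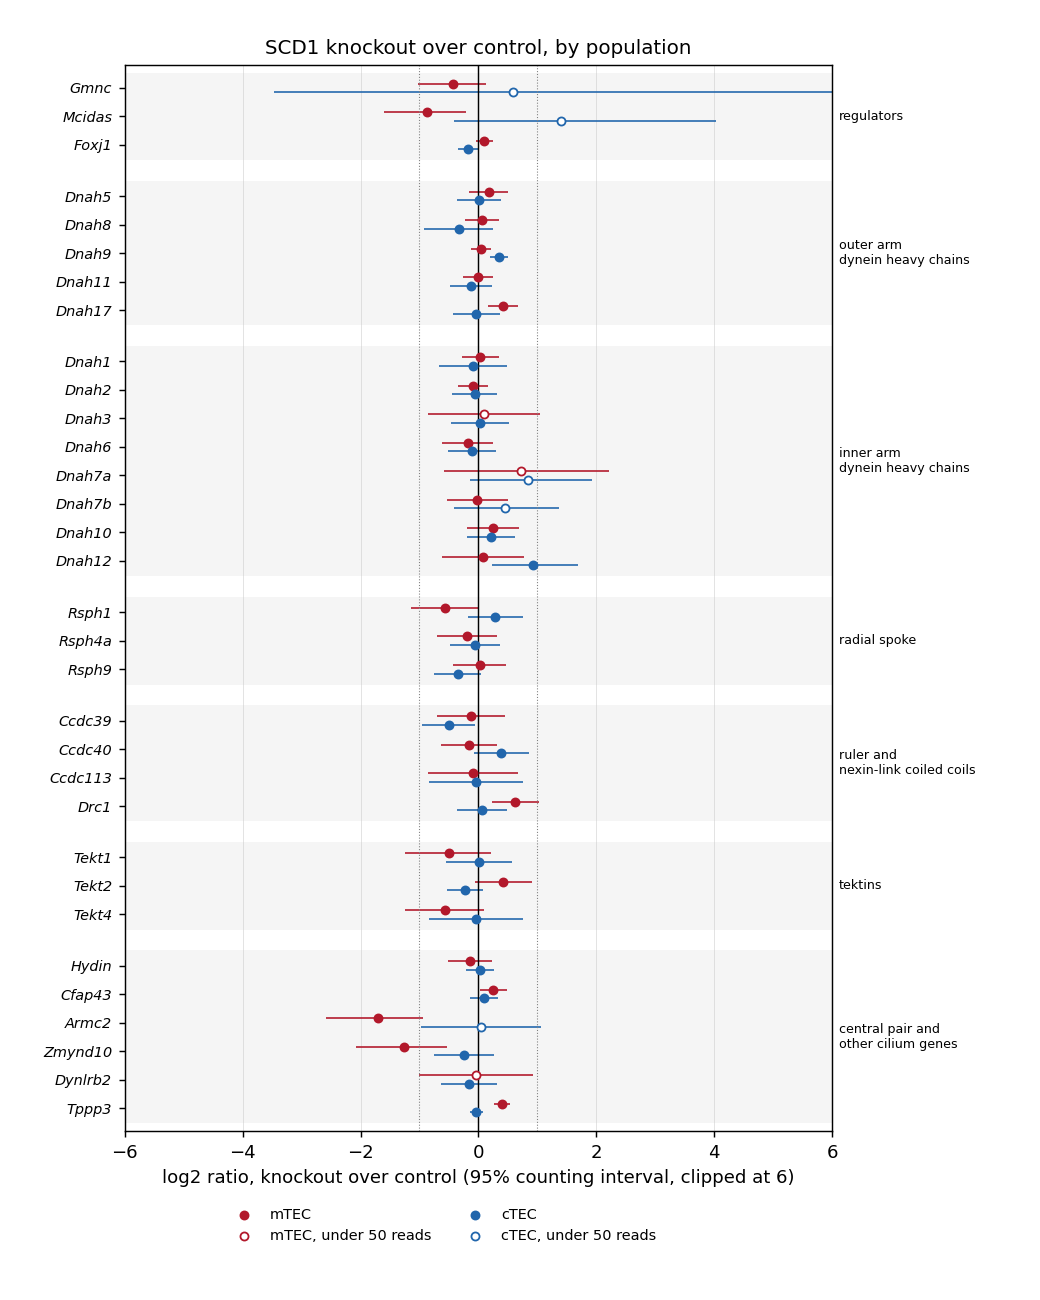
Log2 ratio of SCD1 knockout over control for each cilium gene in mTEC and in cTEC, with 95% counting intervals and open points for genes under 50 reads in the pair. Armc2 (-1.70) and Zmynd10 (-1.27) are the filled mTEC points left of the 2-fold line, and all filled cTEC points lie within it.

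Several marker lists had ratios of knockout over control mostly above 0, where 52.0% of all genes tested in mTEC and 52.4% in cTEC lay above 0. Other lists did not. Of the 11 mTEC markers, 6 were above 0 and 5 below in mTEC, and 3 above and 8 below in cTEC. Of the B cell markers with enough reads, 1 was above 0 and 2 were below in mTEC. Of 10 thymocyte markers with enough reads, 9 were above 0 in mTEC and 10 in cTEC, with medians of 0.27 and 0.36. All 10 cortical epithelial markers were above 0 in both populations, with medians of 0.23 and 0.33. Myeloid markers were above 0 in 5 of 8 genes in mTEC and 7 of 7 in cTEC, and endothelial markers in 4 of 4 and 3 of 3. Only the endothelial genes Cldn5 in mTEC and Cdh5 in cTEC passed the size rule among these, both higher in knockouts. Their part in the cilium gene ratios was not tested.

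The genotype ratios of the 2 populations, which share no library, had the same sign for 17 of 32 genes (53.1%), against 54.7% of all genes with enough reads in both. Over the 32 genes their Pearson r was -0.0642 and their Spearman rho 0.0147, across genes and with no test. For the 25 cilium genes with enough reads in both, 14 had the same sign (56.0%), with r of 0.0859 and rho of 0.13. Over all genes with enough reads, r was 0.0811 and rho 0.109. In the further cilium lists 0 of 87 genes passed the size rule in mTEC, and in cTEC 2 of 98 were higher (Efhc2, with 120 reads in knockout cTEC against 48 in control cTEC, and Spag17, with 40 reads in knockout cTEC against 17 in control cTEC) and 1 was lower (Ttc25, with 27 reads in knockout cTEC against 57 in control cTEC). Of all genes tested, 0.935% passed in mTEC. In cTEC 0.492% of all genes were higher and 0.692% lower, beside 2.04% and 1.02% of the further cilium genes. Only 2 of the 16 sperm-specific genes had enough reads in mTEC. Of these Tnp2 passed, with 52 reads in knockout mTEC against 21 in control mTEC.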

How the data were processed

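Gene-level read counts, raw and unscaled, are what the authors deposited for all 4 libraries in 1 table. The submitters' processing notes name CASAVA, HISAT2 2.0.5, featureCounts 1.5.0-p3 and mm10. Which gene annotation was used, whether counting was stranded and how multiply mapped reads were handled is not given in the sources used. Gene lengths in bases are a further, other column of the deposited table and served for TPM.

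Library sizes were adjusted by TMM (edgeR 4.0.16, R 4.3.3), giving factors of 1.03 for knockout mTEC, 1.03 for control mTEC, 0.966 for knockout cTEC and 0.971 for control cTEC. Everything else was computed in Python 3.11.15 (with scipy 1.17.1, pandas 2.3.3, numpy 2.4.6). Ratios have a prior of 0.5 reads and exact conditional binomial 95% intervals, and levels have exact Poisson intervals. Amplified reads are no independent molecules, and all of these limits describe counting error alone. With 1 library a group no test was made. A count of 0 allows up to 3 counts, or 0.171 CPM in knockout mTEC, 0.176 in control mTEC, 0.171 in knockout cTEC and 0.196 in control cTEC. The code was tested on simulated data with 200 changed genes.

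All 32 genes are described. They and the further lists were chosen with earlier results of these data known. From a further list, genes that passed the size rule, those with interval bounds farthest from 0 first, and its most abundant genes could be named. Gene positions are those of the deposited table, 27 of 32 of which match GENCODE M21, and shared sequence was counted over 50-base windows of GENCODE M21 transcripts. Alternatives were DESeq2 1.42.0 size factors, total reads, other minimums and limits, a larger prior and leaving out Dnah7a and Dnah7b.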

Additional observations from a re-analysis of the deposited data

How the results depend on the processing

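Requiring 200 reads lowered the number of genes passing the size rule to 0 for knockout over control in mTEC (2 with 50 reads), to 5 for mTEC over cTEC in knockouts (11 with 50 reads) and to 6 in controls (12 with 50 reads), and turned the knockout median of mTEC over cTEC to 0.357, where only the 14 more abundant genes were tested. A 1.5-fold limit gave 4 genes in mTEC and 1 in cTEC for knockout over control. The shares of all genes under these and the other changed rules were not computed, so these numbers cannot be set beside them. DESeq2 size factors, total-read scaling, a minimum of 20 reads, no minimum, a prior of 2 reads and leaving out Dnah7a and Dnah7b each kept the 4 numbers of passing genes within 1.5 times. The medians turned sign in mTEC for knockout over control with 200 reads (0.077) and for mTEC over cTEC in controls with 200 reads (0.134) or total-read scaling (0.055). Total-read scaling shifted mTEC over cTEC by up to 0.093 for all genes. No minimum gave 13 passing genes in knockouts, with 7 higher and 6 lower. Every one of the 128 single ratios under DESeq2 and total-read scaling stayed in its counting interval, and the sign changed for 2 and 1 of them, none over 0.037 in size. No paired analysis was possible because each group has 1 library and the labels give no replicate numbers. Depth limits Gmnc, Mcidas and Dnah7a, which had under 10 reads in at least 1 library.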
